A study of Homo sapiens with 36 samples.

Results

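The collagen genes were taken as every gene whose symbol is COL, a number, A and a number, which gave 44 genes, with 359 transcripts, of the 27851 genes with a symbol in the count table. The table came from 36 poly(A)-selected RNA-seq libraries of 4 human PCa cell lines, each harvested at day 5. DU145 and 22Rv1 were labelled osteolytic prostate cancer (LPCa), and C4-2 and its bone-derived subline C4-2B osteoblastic (BPCa). Each line was grown alone (mono-culture, 3 libraries), with the human osteosarcoma-derived osteoblast-like line MG63 (2 libraries), alone with 50 ng/mL of RANKL, the cytokine that drives osteoclast formation (2 libraries), and with the mouse macrophage line RAW264.7, an osteoclast precursor, also with 50 ng/mL of RANKL (2 libraries). In co-culture the partner cells grew in a second well of the NICO-1 horizontal system behind a 0.6 μm filter, and only RNA of the PCa line was sequenced. Each group is 1 established line, and nothing in the labels ties the libraries of a group to separate cultures, so p-values measure the spread between these libraries, which may be technical.

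Collagens are secreted or membrane-anchored proteins of 3 chains wound into a triple helix, which needs glycine as the first residue of each triplet, so that their genes carry long rows of glycine-led triplets. Fibril-forming collagens (types I, II, III, V, XI, XXIV and XXVII) make tension-bearing fibers, type IV makes the sheet of basement membranes, type VI makes beaded filaments beside cells, and the FACIT group decorates fibrils. Most collagen in bone and stroma is made by osteoblasts and fibroblasts, and epithelial cells mainly make basement membrane and cell surface collagens. Chains work in fixed partnerships, such as COL4A1 with COL4A2, COL4A3 with COL4A4 and COL4A5, COL6A1 with COL6A2 and COL6A3, and COL1A1 with COL1A2.

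The repeat that defines the family is shown in 1 exon of each of 5 genes that the results below turn on or compare, with the glycine codons (GGN) in capitals. The exons were read from GENCODE 29 transcripts, and positions are on GRCh38.
COL6A2-201 exon 6, chr21:46115872-46115925, plus strand: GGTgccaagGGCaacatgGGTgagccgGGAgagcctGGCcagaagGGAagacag
COL4A2-201 exon 6, chr13:110424953-110424997, plus strand: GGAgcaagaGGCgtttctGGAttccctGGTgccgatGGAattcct
COL4A5-202 exon 3, chrX:108559064-108559153, plus strand: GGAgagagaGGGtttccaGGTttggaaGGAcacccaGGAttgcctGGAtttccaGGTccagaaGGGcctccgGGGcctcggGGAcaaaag
COL1A1-201 exon 7, chr17:50198161-50198205, minus strand: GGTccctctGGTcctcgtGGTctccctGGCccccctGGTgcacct
COL27A1-201 exon 4, chr9:114178291-114178344, plus strand: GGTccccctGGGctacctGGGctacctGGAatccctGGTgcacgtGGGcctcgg
COL6A2 encodes a chain of type VI, the partner of the COL6A1 chain, COL4A2 and COL4A5 encode chains of type IV, and COL1A1 and COL27A1 encode fibril-forming chains. In the principal coding transcripts, the longest unbroken row was of 337 to 343 glycine-led triplets in the other fibril-forming genes, 217 in COL27A1, 216 in COL24A1, 87 in COL6A1 and COL6A2, 66 in COL4A2 and 40 in COL4A5. Type IV helices are known for their interruptions, and the rows of all 6 type IV genes were of 38 to 66 triplets.

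Library totals were 23932472 to 36719047 estimated counts in the 12 mono-cultures without RANKL and 9593426 to 15418211 in the other 24 libraries, so depth and culture differed together, and 3 counts, taken as the floor of detection, were at most 0.125 CPM (counts scaled to the library total) in the former and at most 0.313 CPM in the latter. The second DU145 library with MG63 stood apart from its partner (chi-square over genes of 165 per degree of freedom, against a median of 4.5 over replicate pairs), and the MG63 results of DU145 are given with and without it. Of 14 mesenchymal or osteoblast-like markers, 8 in DU145, 8 in 22Rv1, 7 in C4-2 and 7 in C4-2B exceeded 3 counts in a library of the mono-culture, and 6, 8, 6 and 7 in one with MG63. POSTN was at 0 in both MG63 co-cultures of DU145, C4-2 and C4-2B and above 0 in 1 of 2 in 22Rv1, where it was at 0 alone, while MMP2 was at 0 with MG63 in all lines but C4-2B, where it was at 0 alone. The summed level of the list was 10.9 to 15.5 CPM in DU145 with MG63 against 11.0 to 13.0 alone, 49.7 to 52.5 against 36.3 to 40.4 in 22Rv1, 6.67 to 7.98 against 6.03 to 6.82 in C4-2 and 7.54 to 10.9 against 6.09 to 6.68 in C4-2B. In 22Rv1 that sum was mostly TWIST1, at 40.6 and 43.7 CPM with MG63 and 27.3, 29.2 and 30.4 CPM alone. The part of MG63 RNA in the results was not tested. All 10 prostate epithelial markers exceeded 3 counts in every group. Their sum was 8122 to 8394 CPM alone, 6889 to 7040 with MG63 and 6862 to 6971 with RANKL in C4-2, and 8833 to 9261, 6929 to 7160 and 6047 to 6099 in C4-2B. In 22Rv1 these sums were 1749 to 1818, 2100 to 2120 and 1841 to 1883 CPM, and in DU145 1081 to 1113, 902.6 to 1500 and 1810 to 1813 CPM. The part of these shifts in the collagen results was not tested.

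Of the 44 collagen genes, 21 reached 100 counts in at least 1 library, 12 exceeded 3 counts in all 36 libraries, and 5 (COL5A3, COL6A5, COL6A6, COL11A1 and COL22A1) never exceeded 3 counts. The 21 comprised 4 of 11 fibril-forming genes, 5 of 9 network-forming genes, 2 of 5 beaded-filament genes, the anchoring fibril gene COL7A1, 5 of 10 FACIT genes, 2 of 4 transmembrane genes and both multiplexin genes. The other 23 stayed at or under 4.04 CPM, reached by COL28A1. Summed over the family, group means were 94.7 to 132 TPM (counts scaled to annotated transcript length and library). In CPM the sums were 245.5 to 348.7 in DU145, 160.9 to 186.1 in 22Rv1, 167.7 to 195.0 in C4-2 and 185.8 to 221.0 in C4-2B, with DU145 above every library of the other lines. On transcripts that GENCODE 29 lists as complete coding ones, the sums were 217.3 to 254.6, 70.3 to 83.6, 104.9 to 131.2 and 120.2 to 134.2 CPM, with 22Rv1 below every other library. In RNA of whole cultures, fewer cells with a transcript and less of it per cell cannot be told apart. COL6A2 and COL6A1 led in all 4 DU145 groups, COL9A3 made 45.9% to 55.9% of the sum in the 22Rv1 groups, and COL6A1, COL9A3 and COL4A5 were the leading 3 in every group of C4-2 and C4-2B.

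**Figure D1:**
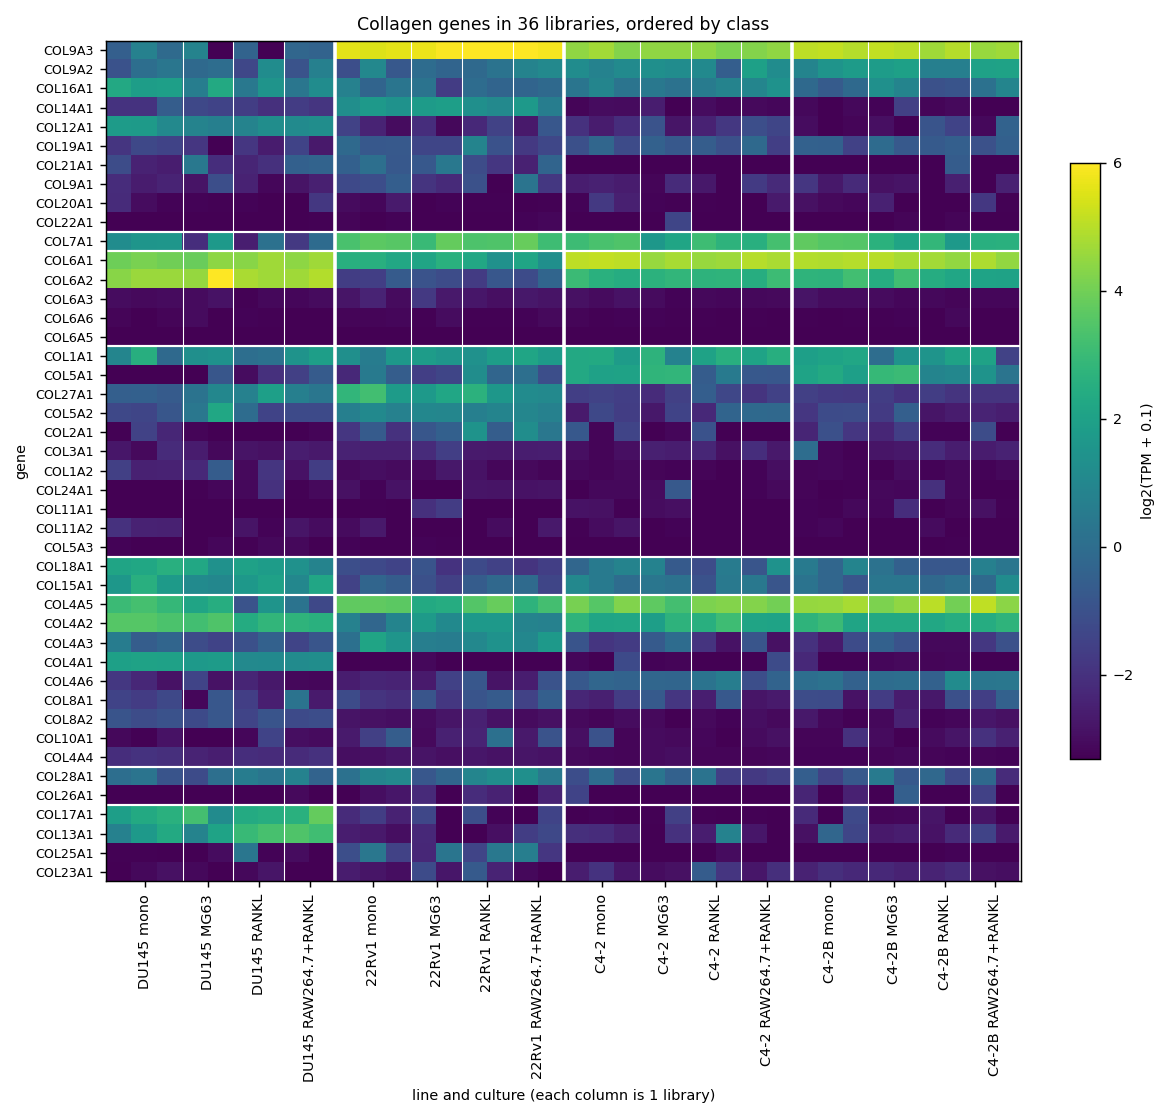
Level of all 44 collagen genes (rows, grouped by class) in all 36 libraries (columns, grouped by line and culture), as log2(TPM + 0.1). The 4 lines separate by which genes are bright, COL4A1, COL6A2, COL12A1, COL13A1 and COL17A1 in DU145, COL14A1 and COL27A1 in 22Rv1, and COL5A1 in C4-2 and C4-2B, while the 4 cultures of a line look alike for most genes.

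Much of the signal lay on other transcripts than these complete coding ones. Per library, complete coding transcripts held 73.0% to 88.5% of the collagen counts in DU145, 39.4% to 48.6% in 22Rv1, 60.0% to 68.2% in C4-2 and 57.1% to 64.7% in C4-2B. No complete coding transcript of COL9A3 has a line in the table, so all counts of that gene fall outside this share. Without COL9A3 the shares were 73.0% to 88.8%, 60.9% to 70.2%, 66.6% to 76.2% and 66.99% to 76.3%, and the 4 ranges overlapped except that DU145 lay above 22Rv1. Of the 21 genes that reached 100 counts, 15 had a complete coding transcript as their most counted one, 13 had over 50% of their counts on complete coding transcripts, and 3 (COL9A3, COL15A1 and COL17A1) had under 10%.

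COL9A3, a chain of the cartilage FACIT collagen IX and the gene with the highest mean TPM over the 36 libraries, had neither of its 2 complete coding transcripts in the table. Of its counts 80.3% lay on COL9A3-207, a processed transcript of 993 bases over exons 29 to 32 of the 32 in the principal form. COL7A1, the anchoring fibril chain, had 84.7% on retained-intron transcripts. COL5A1, a chain that sets fibril diameter, had 64.1% on COL5A1-203, a retained-intron transcript of 913 bases, and 12.7% on complete coding ones. COL15A1, a multiplexin, had 99.3% on the retained-intron COL15A1-204, of which 12.6% of bases lie in exons of the principal form. COL17A1, the hemidesmosome collagen, had 91.6% on the incomplete COL17A1-204 of 537 bases. For 4 genes (COL9A3, COL13A1, COL17A1 and COL19A1) the table used here had no line for the principal coding transcript, and whether that transcript was in the kallisto index is not given in the sources used here. By contrast COL4A1 had 99.5% on complete coding transcripts, COL5A2 95.5%, COL14A1 93.0%, COL6A2 91.6%, COL12A1 89.7% and COL6A1 86.4%. Short forms divide their counts by a short length, which raises TPM, so levels between genes are led by such forms for COL9A3, COL17A1, COL5A1 and COL15A1. By mean TPM these genes ranked 1, 10, 8 and 15 in the family, and by mean CPM 4, 22, 17 and 21.

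**Figure D2:**
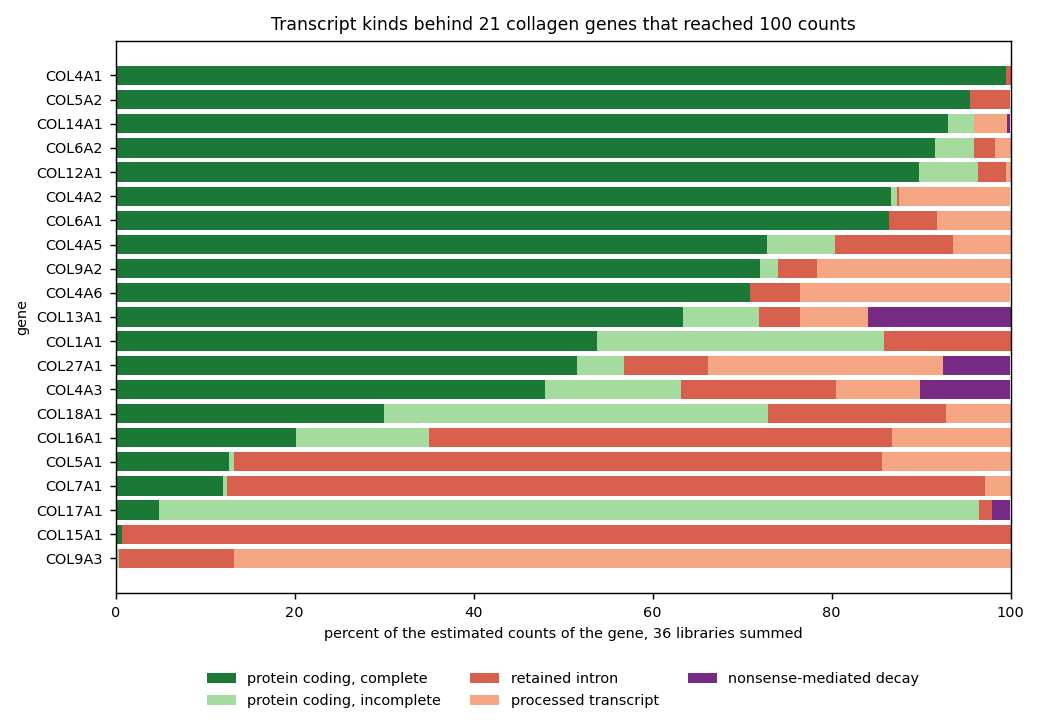
Share of each gene's estimated counts, summed over 36 libraries, by the kind of transcript they were assigned to (x axis, percent), for the 21 collagen genes that reached 100 counts (y axis). COL4A1 is almost wholly complete coding (99.5%), and COL15A1 and COL17A1 almost wholly not. COL9A3 has no complete coding transcript in the table.

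Comparison of the lines in mono-culture asked which collagen genes each line used. A gene was called where it differed over 2-fold with an adjusted p under 0.05 (edgeR's quasi-likelihood test, Benjamini-Hochberg over all genes tested), among the 20 collagen genes of 13437 genes that reached 100 counts in the 20 libraries without RANKL. A gene could pass this filter through a single line, as COL4A1, COL12A1 and COL13A1 did through DU145 and COL5A2 and COL14A1 through 22Rv1. The line differences of such genes, and the counts and medians that include them, are thus partly set by the filter, which was the same for all genes. Between 22Rv1 and DU145, 7 of 20 collagen genes were higher in 22Rv1 and 9 lower, against 19.6% and 20.1% of all genes (39.7% in either direction). DU145 had 12 higher and 6 lower than the mean of C4-2 and C4-2B (all genes 21.1% and 18.3%, 39.4% in either direction), and 22Rv1 had 5 higher and 8 lower than that mean (16.3% and 12.9%, 29.1% in either direction). By adjusted p alone the numbers of collagen genes were 19 (79.6% of all genes), 20 (81.6% of all genes) and 16 (75.9% of all genes) in these comparisons. The median log2 difference over the 20 genes was 0.19, 1.45 and -1.03 in these 3 comparisons, against 0.022, -0.0021 and 0.015 over all genes, and with single libraries left out it ran from 0.056 to 0.57, 1.41 to 1.54 and -1.01 to -0.77. Between C4-2B and C4-2, 0 of 20 were called (1.08% of all genes were higher and 1.18% lower, 2.25% in all), 3 (13.6% of all genes) had an adjusted p under 0.05 with no fold limit, 4 had an unadjusted p under 0.05 (a threshold at which all genes were not counted), and DESeq2 also called 0. Those 3 were 1 without the first C4-2B mono-culture.

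The basement membrane pair COL4A1 and COL4A2 marked DU145. Its COL4A1 level was 24.4, 24.2 and 24.5 CPM in mono-culture, 20.99 and 22.3 with MG63, 13.1 and 12.8 with RANKL, and 13.6 and 14.1 with RAW264.7 and RANKL. In the other lines COL4A1 was at most 0.23 CPM, with 6.55 counts in the third C4-2 mono-culture as the highest and no library of 22Rv1 over 0.8 counts, so no fold is given. COL4A2 in DU145 was 67.2, 63.9 and 62.4 CPM in mono-culture, 57.0 and 53.6 with MG63, 33.8 and 37.7 with RANKL, and 37.6 and 38.2 with RAW264.7 and RANKL. In 22Rv1 COL4A2 was 1.38, 0.83 and 1.55 CPM in mono-culture, 2.81 and 1.996 with MG63, 2.79 and 2.68 with RANKL, and 1.86 and 1.69 with RAW264.7 and RANKL. DU145 was above every library of the other lines for both genes.

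C4-2 had COL4A2 at 5.53, 4.32 and 4.49 CPM in mono-culture, 3.79 and 6.08 with MG63, 5.99 and 7.52 with RANKL, and 4.87 and 5.23 with RAW264.7 and RANKL. C4-2B had it at 5.76, 6.75 and 4.47 CPM in mono-culture, 5.17 and 5.30 with MG63, 5.02 and 5.95 with RANKL, and 5.57 and 6.64 with RAW264.7 and RANKL. COL4A2 was 11.9-fold higher in DU145 than in C4-2 and C4-2B (log2 fold change 3.57, SE 0.13, adjusted p = 1.2e-13) and lower in 22Rv1 than in those lines (log2 fold change -2.09, SE 0.20, adjusted p = 7.4e-08). On complete coding transcripts the difference of DU145 from C4-2 and C4-2B was 39.9-fold (log2 fold change 5.32, SE 0.07, adjusted p = 1.3e-18). In DU145, 99.2% of COL4A2 counts were on complete coding transcripts, against 27.1% in 22Rv1, 33.4% in C4-2 and 32.6% in C4-2B, where most fell on COL4A2-204, a processed transcript of 679 bases over the last 2 exons. The RefSeq start sites of COL4A1 and COL4A2 are 126 bases apart and point away from each other on chromosome 13 (GRCh38.p14), and in DU145 the mean ratio of COL4A2 to COL4A1, in TPM, was 2.80 in mono-culture, 2.98 with MG63, 3.004 with RANKL and 2.85 with RAW264.7 and RANKL.

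COL4A5, an X-linked chain of basement membranes, was present in all lines. Its DU145 values were 19.5, 20.7 and 19.6 CPM in mono-culture, 14.8 and 16.9 with MG63, 1.88 and 3.68 with RANKL, and 2.33 and 1.92 with RAW264.7 and RANKL. The 22Rv1 values were 29.8, 29.8 and 28.6 CPM in mono-culture, 14.8 and 15.2 with MG63, 24.3 and 29.5 with RANKL, and 23.1 and 23.7 with RAW264.7 and RANKL. Those of C4-2 were 34.2, 28.2 and 35.4 CPM in mono-culture, 28.99 and 25.6 with MG63, 46.3 and 44.0 with RANKL, and 45.02 and 39.1 with RAW264.7 and RANKL. In mono-culture DU145 lay below both other lines, and 1 C4-2 library lay just below those of 22Rv1 while the others lay above. C4-2B was highest, with COL4A5 at 50.7, 47.9 and 53.3 CPM in mono-culture, 38.8 and 40.5 with MG63, 65.7 and 48.8 with RANKL, and 66.5 and 53.0 with RAW264.7 and RANKL. It was 1.60-fold higher in C4-2B than in C4-2 (log2 fold change 0.68, SE 0.07, adjusted p = 9.8e-06), under the fold limit. Of its known partners, COL4A6 reached at most 0.225 and COL4A4 at most 0.502 of the COL4A5 level in TPM in any library. COL4A3 lay below COL4A5 in TPM in 35 of 36 libraries. Both were low in DU145 with RANKL, where COL4A3 was at 0.386 and 0.644 TPM beside 0.426 and 2.73 TPM of COL4A5, and with RAW264.7 and RANKL at 0.278 and 0.452 TPM beside 1.07 and 0.302 TPM.

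The 2 full-length coding forms of COL4A5 differed in share between the LPCa and the BPCa lines in cultures without RANKL, and overlapped within each pair. COL4A5-201 (6483 bases) has a pair of exons of 9 bases each that COL4A5-202 (6427 bases) lacks, at chrX:108670228-108670236 and chrX:108674745-108674753 on the plus strand (GRCh38). They add 18 bases in frame, which are shown with the glycine codons in capitals because the isoform share turns on them.
COL4A5-201: GGTcctacaGGTtttcaa
The first base comes from the exon before, and the stretch holds 2 glycine-led triplets. COL4A5-201 held 57.4%, 54.5% and 52.5% of the counts of both forms in DU145 mono-cultures and 54.4%, 52.9% and 61.1% in 22Rv1 mono-cultures. The share was at most 4.14% in C4-2 mono-cultures and at most 7.41% in C4-2B mono-cultures, and at most 9.36% in any library of those 2 lines. Every LPCa library of the mono-cultures and MG63 co-cultures, with 36.9% or more, lay above every BPCa library. In the 4 DU145 libraries with RANKL there were at most 20.8 counts of COL4A5-201 and 23.2 of COL4A5-202, and the share there ran from near 0 to near 100%. These shares come from the authors' kallisto estimates, with no error of their own, and were not tested.

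Collagen VI, in which COL6A1, COL6A2 and COL6A3 chains combine, was high for 1 or 2 chains and near the floor for COL6A3. COL6A1 in DU145 was 43.8, 43.3 and 45.1 CPM in mono-culture, 45.1 and 62.5 with MG63, 64.9 and 70.4 with RANKL, and 65.8 and 73.2 with RAW264.7 and RANKL. 22Rv1 had COL6A1 at 13.0, 12.7 and 11.9 CPM in mono-culture, 11.7 and 13.7 with MG63, 12.5 and 10.9 with RANKL, and 11.1 and 10.5 with RAW264.7 and RANKL. C4-2 had COL6A1 at 74.8, 77.2 and 73.3 CPM in mono-culture, 63.2 and 67.04 with MG63, 70.8 and 71.6 with RANKL, and 76.0 and 76.5 with RAW264.7 and RANKL. 22Rv1 was lowest, with no overlap with the other lines. COL6A1 in C4-2B was 69.5, 71.0 and 75.2 CPM in mono-culture, 73.7 and 66.3 with MG63, 64.5 and 60.9 with RANKL, and 73.3 and 62.8 with RAW264.7 and RANKL. It was 6.17-fold lower in 22Rv1 than in C4-2 and C4-2B (log2 fold change -2.62, SE 0.09, adjusted p = 1.5e-13).

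COL6A2 was highest in DU145, at 52.1, 53.6 and 58.0 CPM in mono-culture, 61.6 and 130.3 with MG63, 75.3 and 72.7 with RANKL, and 70.0 and 79.9 with RAW264.7 and RANKL. The 130.3 CPM is the library that stands apart, where COL6A2-205, an incomplete form of 750 bases, took 550 counts against 0 to 32.7 in the other DU145 libraries. In 22Rv1 COL6A2 was 0.47, 0.41 and 0.85 CPM in mono-culture, 0.96 and 1.24 with MG63, 0.70 and 0.65 with RANKL, and 0.54 and 1.05 with RAW264.7 and RANKL. In C4-2 it was 16.2, 16.7 and 16.2 CPM in mono-culture, 16.7 and 17.2 with MG63, 16.3 and 17.6 with RANKL, and 17.8 and 18.2 with RAW264.7 and RANKL. DU145 lay above all other lines and 22Rv1 below them. In C4-2B it was 17.97, 18.8 and 21.1 CPM in mono-culture, 17.9 and 22.1 with MG63, 12.3 and 13.2 with RANKL, and 13.0 and 13.2 with RAW264.7 and RANKL. COL6A2 was 2.96-fold higher in DU145 than in C4-2 and C4-2B (log2 fold change 1.56, SE 0.15, adjusted p = 6.4e-08), and 30.2-fold lower in 22Rv1 than in them (log2 fold change -4.92, SE 0.28, adjusted p = 1.0e-10). Per length, COL6A2 was at a mean of 1.42 times COL6A1 in DU145 mono-culture, 0.064 in 22Rv1, 0.19 in C4-2 and 0.24 in C4-2B. The mean ratios on complete coding transcripts were 1.59, 0.047, 0.32 and 0.38, with the lines in the same order. COL6A3 never exceeded 7.9 counts in a library.

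**Figure D3:**
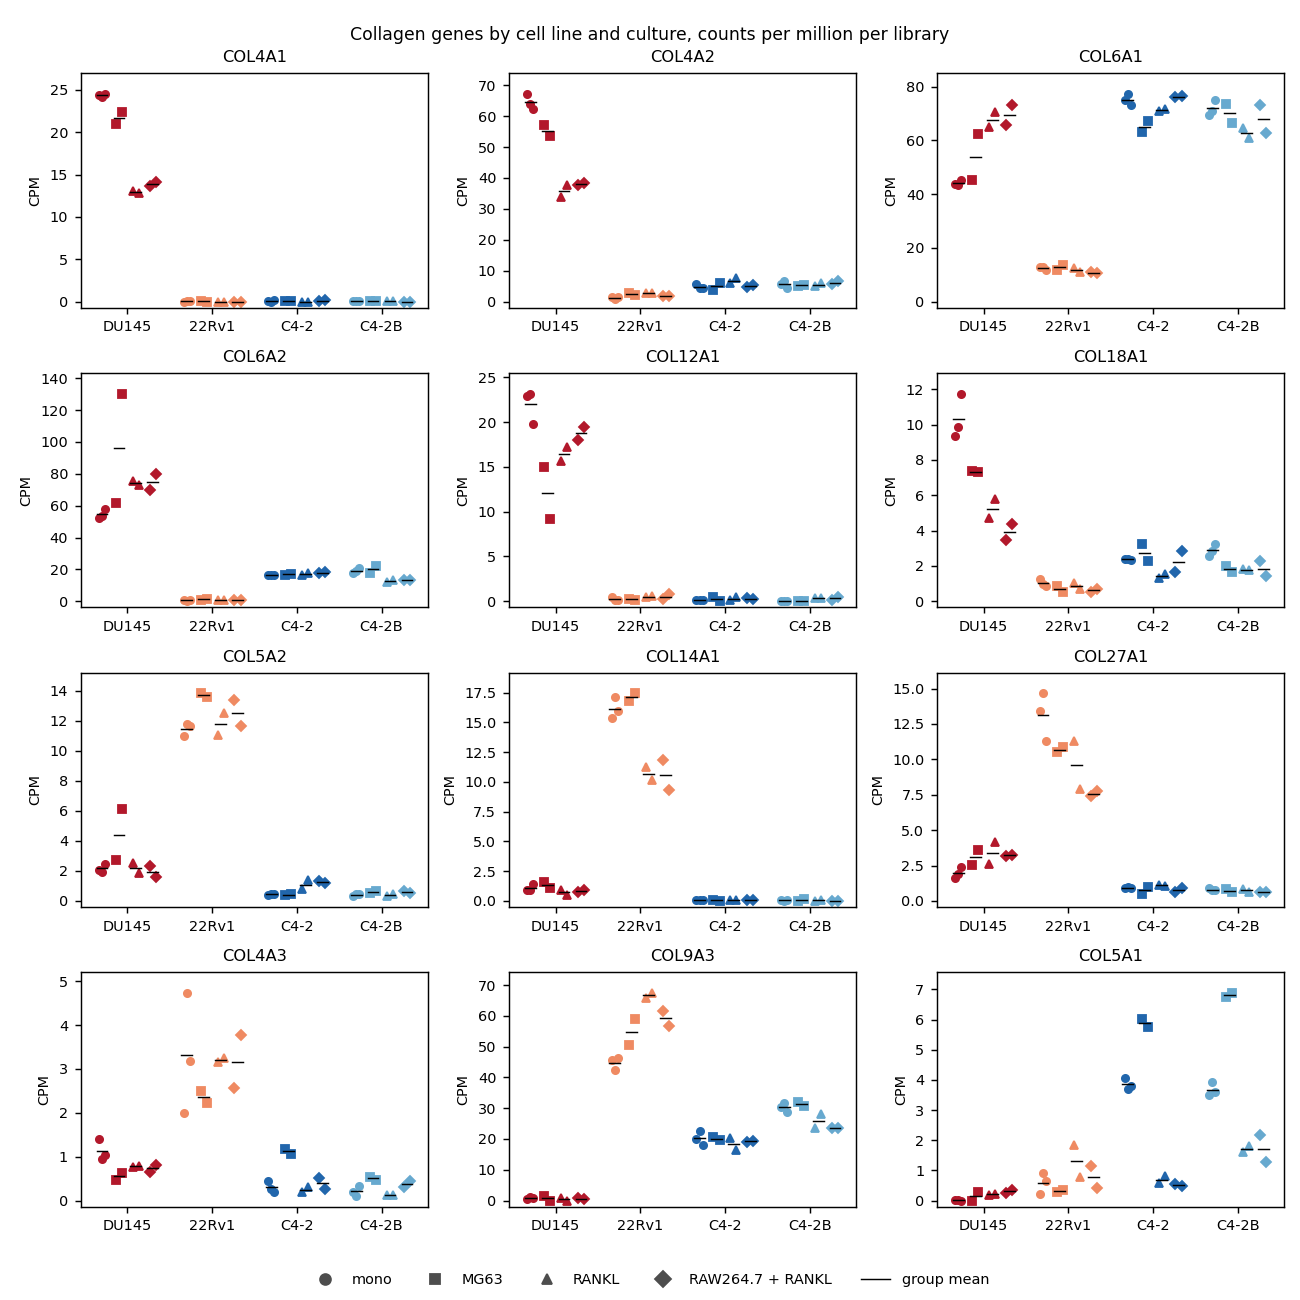
CPM (y axis, linear, 1 scale per gene) of 12 collagen genes in each of 36 libraries, by line (x axis) and culture (marker), with the group mean as a bar. COL4A1, COL4A2, COL6A2, COL12A1 and COL18A1 are highest in DU145, COL5A2, COL14A1, COL27A1 and COL9A3 in 22Rv1, and COL5A1, in cultures without RANKL, in C4-2 and C4-2B.

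The fibril-forming genes COL5A2, COL27A1 and COL5A1 each differed between lines. COL5A2, the partner of COL5A1 in type V, marked 22Rv1. It was 11.0, 11.8 and 11.6 CPM in mono-culture, 13.8 and 13.6 with MG63, 11.0 and 12.5 with RANKL, and 13.4 and 11.7 with RAW264.7 and RANKL. In DU145 COL5A2 was 2.09, 1.95 and 2.44 CPM in mono-culture, 2.75 and 6.09 with MG63, 2.51 and 1.85 with RANKL, and 2.31 and 1.60 with RAW264.7 and RANKL. Every 22Rv1 library lay above every DU145 library. COL5A2 in C4-2 was 0.41, 0.49 and 0.46 CPM in mono-culture, 0.37 and 0.45 with MG63, 0.80 and 1.37 with RANKL, and 1.34 and 1.17 with RAW264.7 and RANKL. In C4-2B it was 0.33, 0.47 and 0.44 CPM in mono-culture, 0.50 and 0.68 with MG63, 0.34 and 0.48 with RANKL, and 0.67 and 0.53 with RAW264.7 and RANKL. The 22Rv1 level was 25.1-fold that of C4-2 and C4-2B (log2 fold change 4.65, SE 0.18, adjusted p = 9.7e-13) and 5.25-fold that of DU145 (log2 fold change 2.39, SE 0.20, adjusted p = 9.7e-09). COL27A1, a fibril-forming chain of cartilage, had a median of 10.8 CPM in 22Rv1, 2.61 in DU145, 0.94 in C4-2 and 0.74 in C4-2B, and was 14.3-fold higher in 22Rv1 than in the 2 BPCa lines (log2 fold change 3.84, SE 0.15, adjusted p = 7.4e-13). Complete coding transcripts held 63.0% of its counts in 22Rv1 and 40.9% in DU145, but 0.402% in C4-2 and 1.45% in C4-2B, where they were under 1 count in every library, so that no fold on that scale is given.

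COL5A1 ran the other way. In C4-2 it was 4.06, 3.71 and 3.79 CPM in mono-culture, 6.01 and 5.74 with MG63, 0.57 and 0.81 with RANKL, and 0.54 and 0.48 with RAW264.7 and RANKL. C4-2B had COL5A1 at 3.48, 3.92 and 3.58 CPM in mono-culture, 6.75 and 6.88 with MG63, 1.60 and 1.80 with RANKL, and 2.16 and 1.27 with RAW264.7 and RANKL. In 22Rv1 it was 0.23, 0.91 and 0.63 CPM in mono-culture, 0.28 and 0.35 with MG63, 1.84 and 0.79 with RANKL, and 1.14 and 0.43 with RAW264.7 and RANKL. In mono-culture and with MG63 22Rv1 lay below both of these lines, and with RANKL, with or without RAW264.7, it overlapped C4-2, and with RANKL alone C4-2B too. In DU145 mono-culture COL5A1 had 0 to 0.44 counts per library, under the floor, and in the other 6 DU145 libraries 0 to 5.28 counts. Per length, the ratio of COL5A2 to COL5A1 in mono-culture depended on the transcripts counted. Its mean over all transcripts was 5.999 in 22Rv1 (1.53 to 13.7 over 3 libraries), 0.049 in C4-2 and 0.069 in C4-2B. Over complete coding ones it was 0.991 in C4-2 and 0.644 in C4-2B, and in 22Rv1, with at most 3.46 such counts of COL5A1 in a library, 96.5 and 130 in the 2 libraries above the floor. COL5A1 was 6.61-fold lower in 22Rv1 than in C4-2 and C4-2B (log2 fold change -2.73, SE 0.32, adjusted p = 2.0e-06), mostly on the retained-intron form described above.

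COL1A1, the main chain of bone and skin collagen, was low in all lines, and its partner COL1A2 nearly absent. COL1A1 in DU145 was 2.32, 4.57 and 1.959 CPM in mono-culture, 2.69 and 5.08 with MG63, 2.17 and 2.51 with RANKL, and 2.62 and 4 with RAW264.7 and RANKL. In 22Rv1 it was 2.99, 2.13 and 2.76 CPM in mono-culture, 4.61 and 3.78 with MG63, 3.40 and 3.95 with RANKL, and 4.51 and 4.39 with RAW264.7 and RANKL. The 2 lines overlapped. COL1A1 in C4-2 was 5.81, 6.01 and 4.87 CPM in mono-culture, 6.68 and 3.72 with MG63, 5.28 and 6.18 with RANKL, and 5.33 and 5.93 with RAW264.7 and RANKL. COL1A1 in C4-2B was 4.18, 4.55 and 4.64 CPM in mono-culture, 2.44 and 3.72 with MG63, 3.58 and 4.08 with RANKL, and 4.56 and 1.83 with RAW264.7 and RANKL. No line comparison called it, the largest difference being 1.98-fold lower in 22Rv1 than in C4-2 and C4-2B (log2 fold change -0.99, SE 0.27, adjusted p = 0.0031). On complete coding transcripts that difference passed the fold limit (log2 fold change -1.17, adjusted p = 3.0e-05). COL1A2 had at most 13.1 counts in a library and exceeded 3 counts in 10 of 36.

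Among FACIT genes, which coat fibrils, COL12A1 marked DU145 and COL14A1 marked 22Rv1. COL12A1 in DU145 was 22.9, 23.2 and 19.8 CPM in mono-culture, 15.0 and 9.23 with MG63, 15.6 and 17.2 with RANKL, and 17.97 and 19.5 with RAW264.7 and RANKL. In 22Rv1 it had 1.38 to 11.6 counts per library, in C4-2 1.05 to 6.22 and in C4-2B 0.14 to 5.97, at or near the floor, and no fold against them is given. COL14A1 in 22Rv1 was 15.4, 17.1 and 15.9 CPM in mono-culture, 16.8 and 17.4 with MG63, 11.3 and 10.2 with RANKL, and 11.8 and 9.29 with RAW264.7 and RANKL. In DU145 COL14A1 was 0.88, 0.90 and 1.41 CPM in mono-culture, 1.56 and 1.09 with MG63, 0.94 and 0.50 with RANKL, and 0.75 and 0.88 with RAW264.7 and RANKL. Every 22Rv1 library lay above every DU145 library, 15.0-fold in mono-culture (log2 fold change 3.91, SE 0.24, adjusted p = 2.5e-10), and in C4-2 and C4-2B no library exceeded 2.59 counts of COL14A1.

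Of the collagen IX genes, COL9A3 had the most counts over the 36 libraries. COL9A1 had at most 19.6 counts in a library, with 5.29% of its counts on complete coding transcripts. In 22Rv1 COL9A3 was 45.7, 42.5 and 46.4 CPM in mono-culture, 50.7 and 59.1 with MG63, 65.8 and 67.5 with RANKL, and 61.6 and 56.8 with RAW264.7 and RANKL. In C4-2 it was 20.1, 22.6 and 18.1 CPM in mono-culture, 20.5 and 19.6 with MG63, 20.2 and 16.4 with RANKL, and 19.1 and 19.4 with RAW264.7 and RANKL. In C4-2B it was 30.5, 31.6 and 28.7 CPM in mono-culture, 32.2 and 30.6 with MG63, 23.6 and 28.2 with RANKL, and 23.5 and 23.5 with RAW264.7 and RANKL. The 3 lines did not overlap. DU145 was far lower, with COL9A3 at 0.52, 1.14 and 0.74 CPM in mono-culture, 1.56 and 0 with MG63, 0.68 and 0 with RANKL, and 0.84 and 0.35 with RAW264.7 and RANKL. It was 32.4-fold lower in DU145 than in C4-2 and C4-2B (log2 fold change -5.02, SE 0.25, adjusted p = 7.6e-12), on transcripts with no complete coding sequence.

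The partner chain COL9A2 was highest in C4-2B, at 4.23, 5.55 and 5.14 CPM in mono-culture, 6.65 and 6.15 with MG63, 2.94 and 2.72 with RANKL, and 5.01 and 4.49 with RAW264.7 and RANKL. In C4-2 COL9A2 was 3.47, 3.31 and 3.09 CPM in mono-culture, 3.32 and 4.07 with MG63, 3.23 and 1.75 with RANKL, and 4.47 and 3.28 with RAW264.7 and RANKL. In 22Rv1 it was 0.99, 2.02 and 1.02 CPM in mono-culture, 2.24 and 2.08 with MG63, 2.35 and 3.12 with RANKL, and 3.003 and 3.42 with RAW264.7 and RANKL. Libraries of these 3 lines overlapped once all cultures were counted. In DU145 it was 0.64, 0.85 and 0.98 CPM in mono-culture, 0.78 and 1.17 with MG63, 0.85 and 1.91 with RANKL, and 0.83 and 1.66 with RAW264.7 and RANKL. COL9A2 was 5.03-fold lower in DU145 than in C4-2 and C4-2B (log2 fold change -2.33, SE 0.23, adjusted p = 6.1e-08), or 9.85-fold on complete coding transcripts. COL16A1, another FACIT chain, was in DU145 at 4.67, 3.68 and 3.96 CPM in mono-culture, 1.77 and 5.41 with MG63, 1.33 and 2.54 with RANKL, and 1.24 and 1.86 with RAW264.7 and RANKL. The DU145 mono-cultures lay above all other libraries but 1, the DU145 library with MG63 that stands apart. In 22Rv1 COL16A1 was 2.13, 1.04 and 1.48 CPM in mono-culture, 1.07 and 0.50 with MG63, 0.74 and 0.86 with RANKL, and 0.52 and 0.74 with RAW264.7 and RANKL. C4-2 had COL16A1 at 1.85, 2.11 and 1.89 CPM in mono-culture, 1.34 and 1.74 with MG63, 2.29 and 1.87 with RANKL, and 2.86 and 2.85 with RAW264.7 and RANKL. C4-2B had COL16A1 at 1.34, 1.17 and 1.28 CPM in mono-culture, 2.99 and 2.75 with MG63, 0.73 and 1.09 with RANKL, and 1.56 and 1.93 with RAW264.7 and RANKL. Those 3 lines overlapped.

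The cell surface collagens also followed the line. COL13A1, a transmembrane collagen of epithelial adhesions, was in DU145 at 3.84, 4.67 and 5.6 CPM in mono-culture, 3.54 and 8.91 with MG63, 10.9 and 13.0 with RANKL, and 13.0 and 11.7 with RAW264.7 and RANKL. In no other library did it exceed 0.93 CPM, and it was 17.4-fold higher in DU145 than in C4-2 and C4-2B (log2 fold change 4.12, SE 0.39, adjusted p = 4.8e-08), or 26.2-fold on complete coding transcripts. The mono-cultures of C4-2 and C4-2B had 2.46 to 12.5 counts of COL13A1 per library, and 0 to 10.0 on complete coding transcripts. These are at or near the floor, so neither fold is a firm measure of size. COL17A1 in DU145 was 2.06, 2.58 and 3.08 CPM in mono-culture, 4.99 and 1.19 with MG63, 2.69 and 2.95 with RANKL, and 3.68 and 7.11 with RAW264.7 and RANKL. In the other lines COL17A1 did not exceed 0.28 CPM, and it did not reach 100 counts in the libraries without RANKL, so it was not tested between lines. COL7A1, which anchors basement membranes, was low in DU145, at 2.38, 2.79 and 2.92 CPM in mono-culture, 0.78 and 4.32 with MG63, 0.41 and 0.87 with RANKL, and 0.72 and 1.16 with RAW264.7 and RANKL. In 22Rv1 COL7A1 was 13.5, 16.2 and 12.6 CPM in mono-culture, 17.1 and 22.2 with MG63, 15.7 and 14.9 with RANKL, and 16.1 and 12.1 with RAW264.7 and RANKL. All 22Rv1 libraries lay above all DU145 libraries. C4-2 had COL7A1 at 9.45, 9.69 and 10.8 CPM in mono-culture, 5.46 and 5.45 with MG63, 10.4 and 9.59 with RANKL, and 8.05 and 10.1 with RAW264.7 and RANKL. C4-2B had COL7A1 at 12.7, 11.4 and 12.1 CPM in mono-culture, 7.63 and 6.70 with MG63, 7.72 and 5.40 with RANKL, and 7.22 and 7.08 with RAW264.7 and RANKL. COL7A1 was 4.23-fold lower in DU145 than in C4-2 and C4-2B (log2 fold change -2.08, SE 0.22, adjusted p = 2.4e-07). COL18A1, the multiplexin that holds endostatin, was 3.79-fold higher in DU145 than in those lines (log2 fold change 1.92, SE 0.13, adjusted p = 4.9e-10) and 10.2-fold higher than in 22Rv1 (for 22Rv1 minus DU145, log2 fold change -3.35, SE 0.18, adjusted p = 3.4e-11). Its complete coding transcripts were at 0 in all 9 libraries of 22Rv1, so the 22Rv1 level is of other forms.

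COL4A3, a type IV chain of kidney and lung basement membranes, was highest in 22Rv1, at 2, 4.73 and 3.19 CPM in mono-culture, 2.49 and 2.22 with MG63, 3.16 and 3.26 with RANKL, and 2.57 and 3.77 with RAW264.7 and RANKL. In DU145 COL4A3 was 1.40, 0.95 and 1.05 CPM in mono-culture, 0.47 and 0.63 with MG63, 0.76 and 0.80 with RANKL, and 0.66 and 0.80 with RAW264.7 and RANKL. In C4-2 it was 0.44, 0.27 and 0.19 CPM in mono-culture, 1.18 and 1.06 with MG63, 0.19 and 0.30 with RANKL, and 0.52 and 0.27 with RAW264.7 and RANKL. The 22Rv1 libraries all lay above those of the other lines. In C4-2B COL4A3 was 0.20, 0.11 and 0.33 CPM in mono-culture, 0.53 and 0.48 with MG63, 0.14 and 0.13 with RANKL, and 0.32 and 0.44 with RAW264.7 and RANKL. C4-2 and C4-2B overlapped. It was 12.1-fold higher in 22Rv1 than in C4-2 and C4-2B (log2 fold change 3.60, SE 0.31, adjusted p = 1.8e-08).

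Counted on complete coding transcripts alone, a choice made after the data were seen, 13 collagen genes could be tested, and 11 of them were called between 22Rv1 and DU145, 10 between DU145 and the 2 BPCa lines, 9 between 22Rv1 and those lines and 0 between C4-2B and C4-2, against 39.7%, 39.4%, 29.1% and 2.26% of all genes in the same fit.

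Genes that fold, modify and cross-link collagen were compared in the same way. Of 25 collagen processing genes tested (30 listed), 6 were higher and 11 lower in 22Rv1 than in DU145, 10 higher and 4 lower in DU145 than in C4-2 and C4-2B, and 10 higher and 4 lower in 22Rv1 than in C4-2 and C4-2B. These made 17, 14 and 14 of 25, against 39.7%, 39.4% and 29.1% of all genes. The list median log2 differences were -0.85, 0.70 and 0.0059, against 0.022, -0.0021 and 0.015 over all genes. Of 5 collagen receptor genes tested (8 listed), 3 were lower in 22Rv1 than in DU145, 4 were higher in DU145 than in C4-2 and C4-2B, and 2 were higher in 22Rv1 than in C4-2 and C4-2B. The receptor list medians were -2.42, 2.74 and 0.58, against the same medians of all genes. Between C4-2B and C4-2, where 2.25% of all genes were called, 1 processing gene, PLOD2, and 0 receptor genes were called, and the call of PLOD2 was lost without the first C4-2 or the second C4-2B mono-culture.

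The MG63 co-cultures asked whether osteoblast-like cells behind a filter changed the collagen genes of each line. Of 20 collagen genes tested, 2 rose in DU145, 1 in 22Rv1, 1 in C4-2 and 1 in C4-2B, and 0 fell in any line. Of all genes, 2.4% rose and 1.3% fell in DU145, 1.18% and 0.811% in 22Rv1, 1.17% and 0.409% in C4-2 and 0.677% and 0.543% in C4-2B, which makes 3.7%, 1.99%, 1.58% and 1.22% in either direction. By adjusted p alone, the collagen genes were 7 (30.5% of all genes) in DU145, 2 (20.4% of all genes) in 22Rv1, 1 (10.1% of all genes) in C4-2 and 2 (7.41% of all genes) in C4-2B. Leaving out each library in turn gave 1 to 8 in DU145, 1 to 2 in 22Rv1, 0 to 1 in C4-2 and 0 in C4-2B by adjusted p alone. The counts of 1 or 2 genes called are too small to set against that background. The median log2 fold change over the 20 genes was 0.22, 0.04, -0.02 and 0.11 in DU145, 22Rv1, C4-2 and C4-2B, against -0.062, 0.001, -0.0085 and -0.0017 over all genes. Without the DU145 library that stands apart, the DU145 count by adjusted p alone was 1 (14.9% of all genes) and the median turned to -0.067 (all genes -0.024). The medians of 22Rv1 and C4-2 also changed sign when single libraries were left out (-0.10 to 0.15 and -0.019 to 0.083).

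In DU145, COL5A2 rose 2.12-fold (log2 fold change 1.082, SE 0.24, adjusted p = 0.0041), but the library that stands apart, at 6.09 CPM, was above its partner at 2.75 CPM, and without it the log2 fold change was 0.41 and the call was lost. The call of COL5A1 in DU145 came from 2.84 counts in that same library and 0 in its partner, both under the floor, and no fold is given. In 22Rv1, COL4A2 rose 2.07-fold (log2 fold change 1.05, SE 0.32, adjusted p = 0.027), from 0.83 to 1.55 CPM alone to 1.996 and 2.81 CPM with MG63, with no overlap, and the call was lost without the second mono-culture or either co-culture. It was also lost with library totals in place of TMM (log2 fold change 0.95, adjusted p = 0.035), with no filter and with the replicate block (log2 fold change 1.00, adjusted p = 0.051 under both). Against 22Rv1 mono-cultures with RANKL, sequenced to a depth like that of the co-cultures and at 2.68 and 2.79 CPM, its log2 fold change was -0.09. In C4-2, COL4A3 rose 3.83-fold (log2 fold change 1.94, SE 0.47, adjusted p = 0.014), from 6.002 to 14.8 counts per library alone to 16.3 and 16.7 counts in the less deep co-cultures, and the groups did not overlap in CPM, but the call was lost without the third mono-culture or either co-culture. In C4-2B, COL16A1 rose 2.39-fold (log2 fold change 1.26, SE 0.36, adjusted p = 0.047), from 1.17 to 1.34 CPM to 2.75 and 2.99 CPM, and the call was lost when any 1 of the 5 libraries was left out, and with library totals, no filter or the replicate block (adjusted p = 0.054 to 0.093).

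Without the DU145 library that stands apart, 1 collagen gene was called in DU145, COL7A1, which fell (log2 fold change -1.71, adjusted p = 0.0057), against 1.52% of all genes. On complete coding transcripts, COL5A2 in DU145 and COL4A2 in 22Rv1 were not called, COL5A1, COL4A3 and COL16A1 had too few counts to be tested, and 1 other gene, COL6A2 in 22Rv1, was called, at 2.58-fold. That call rested on 6.84 to 17.9 such counts per library alone and 11.9 and 14.6 in the less deep co-cultures (0.286 to 0.555 CPM against 0.789 and 1.24 CPM). On all transcripts COL6A2 was not called there. COL4A5, whose mean was lower with MG63 than alone in all 4 lines, stayed under the fold limit everywhere. It fell 1.82-fold in 22Rv1 (log2 fold change -0.86, SE 0.09, adjusted p = 1.4e-05), 1.201-fold in DU145 (log2 fold change -0.26, SE 0.10, adjusted p = 0.047) and 1.22-fold in C4-2B (log2 fold change -0.29, SE 0.08, adjusted p = 0.049), and its value in C4-2 was a log2 fold change of -0.15 (adjusted p = 0.34). When any 1 of the 5 libraries was left out, the DU145 and C4-2B differences missed the threshold (adjusted p = 0.070 to 0.27 and 0.071 to 0.28), and without the DU145 library that stands apart the log2 fold change in DU145 was -0.35 (adjusted p = 0.070). The DU145 value on complete coding transcripts was -0.13 (adjusted p = 0.26) and that of C4-2B -0.31 (adjusted p = 0.0056), and against the DU145 mono-cultures with RANKL the DU145 value turned to 2.51 (adjusted p = 4.4e-05), 5.69-fold higher with MG63. In 22Rv1 the co-cultures, at 14.8 and 15.2 CPM, lay far below the mono-cultures at 28.6 to 29.8 CPM and below those with RANKL at 24.3 and 29.5 CPM. The 22Rv1 fall was also found on complete coding transcripts (log2 fold change -0.76, adjusted p = 2.3e-06) and against the mono-cultures with RANKL (log2 fold change -0.78, adjusted p = 0.027).

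The difference of the MG63 effect between the BPCa lines and the LPCa lines was tested directly. Of 20 collagen genes 1, COL4A3, was called (0.811% of all genes were higher and 0.573% lower, 1.38% in all), with an effect 4.86-fold larger in the BPCa lines (log2 fold change 2.28, SE 0.49, adjusted p = 0.009). COL4A3 was at higher CPM with MG63 than alone in both BPCa lines, and at lower means in both LPCa lines. Without the DU145 library that stands apart its difference was 2.41, and COL16A1 was called too, at 1.5 on the log2 scale. It did not reach 100 complete coding counts in any library, so that test could not be made on coding transcripts alone. COL4A5 differed by less than the fold limit (log2 fold change 0.34, SE 0.09, adjusted p = 0.026), which missed the threshold without any 1 of 3 of the 20 libraries (adjusted p up to 0.076), and with the mono-cultures that received RANKL as controls its difference was -1.496 on the log2 scale (adjusted p = 0.00096), the opposite direction. By adjusted p alone the collagen genes that differed were 2 (9.85% of all genes), and 1 to 7 when single libraries were left out, with 7 without the first DU145 library with MG63.

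Among processing genes, 1 of 25 fell with MG63 in DU145 (LOXL1), 1 in C4-2 (PLOD2) and 2 in C4-2B (PLOD2 and LOX), 0 in 22Rv1, and 0 rose, against 3.7%, 1.58%, 1.22% and 1.99% of all genes called in these lines. The call of LOXL1 was lost without the DU145 library that stands apart, its partner or the first mono-culture, and that of PLOD2 in C4-2 without the second co-culture. PLOD2, the lysyl hydroxylase of collagen ends, fell in C4-2B from 8.91, 14.6 and 13.1 CPM to 2.36 and 3.47 CPM (log2 fold change -1.996, SE 0.24, adjusted p = 0.00012). LOX, a lysyl oxidase that cross-links collagen, fell in C4-2B from 2.55, 4.41 and 3.43 CPM to 1.19 and 1.49 CPM (log2 fold change -1.31, SE 0.28, adjusted p = 0.0091), a call lost without either co-culture. PLOD2 and LOX also fell in C4-2B with RANKL and no partner cells, against the same mono-cultures (log2 fold change -1.76 and -1.01). These falls were thus not particular to MG63. No receptor gene of 5 was called in any line with MG63.

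RANKL in mono-culture was compared with mono-culture without it in a fit over all 36 libraries (21 collagen genes of 13454 tested). These comparisons share their controls with those of MG63, and the RANKL libraries were less deep than the controls. In DU145, 2 collagen genes rose and 2 fell (all genes 2.77% and 2.44%), in 22Rv1 2 rose and 0 fell (1.37% and 0.81%), in C4-2 1 rose and 1 fell (1.35% and 0.914%), and in C4-2B 1 rose and 0 fell (0.877% and 1.25%). In either direction these shares were 5.21%, 2.18%, 2.27% and 2.13%. By adjusted p alone, the collagen genes were 11 (32.5% of all genes) in DU145, 3 (17.7% of all genes) in 22Rv1, 5 (18.3% of all genes) in C4-2 and 2 (14.4% of all genes) in C4-2B. Leaving out each library in turn gave 7 to 11, 0 to 3, 2 to 4 and 0 to 1. The median log2 fold change over the 21 genes was -0.32, 0.14, 0.09 and -0.15, against -0.011, -0.013, -0.023 and -0.023 over all genes. With single libraries left out it ran from -0.40 to -0.19, 0.026 to 0.25, 0.012 to 0.074 and -0.34 to -0.11.

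Among the called genes that were above the floor in both groups, COL4A5 in DU145 had the largest change. It fell 6.70-fold (log2 fold change -2.75, SE 0.19, adjusted p = 5.1e-11), from 19.5, 20.7 and 19.6 CPM to 1.88 and 3.68 CPM, and was at 2.33 and 1.92 CPM in the DU145 libraries with RAW264.7 and RANKL. No DU145 library with RANKL overlapped one without it, and the fall was 8.03-fold on complete coding transcripts (log2 fold change -3.00, adjusted p = 1.2e-15). COL4A5 was at a log2 fold change of -0.10 in 22Rv1 (adjusted p = 0.67), 0.55 in C4-2 (adjusted p = 0.0022) and 0.26 in C4-2B (adjusted p = 0.16). In a test added after the data were seen, of the RANKL effect in DU145 against the mean effect in the other 3 lines, COL4A5 differed 7.91-fold (log2 fold change -2.98, SE 0.20, adjusted p = 5.0e-11), and COL4A2, COL7A1 and COL12A1 were also called lower and COL5A1 higher, 5 of 21 genes, or 7 by adjusted p alone against 23% of all genes (with the fold limit 2.24% of all genes lower and 2.5% higher, 4.74% in all). COL12A1 was at or near the floor in those other 3 lines, and COL5A1 was under it in DU145.

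COL4A1, COL4A2, COL18A1 and COL16A1 fell in DU145 by less than the fold limit. COL4A1 fell 1.75-fold (log2 fold change -0.81, SE 0.23, adjusted p = 0.01), COL4A2 1.68-fold (log2 fold change -0.75, SE 0.14, adjusted p = 0.00021) and COL18A1 1.83-fold (log2 fold change -0.87, SE 0.21, adjusted p = 0.0019), and no DU145 library with RANKL reached one of the mono-cultures for any of these 3 genes. COL16A1 fell from 4.67, 3.68 and 3.96 CPM to 1.33 and 2.54 CPM (log2 fold change -0.97, SE 0.35, adjusted p = 0.034), and missed the threshold without any 1 of 3 of the 5 libraries (adjusted p up to 0.34). The COL18A1 difference missed it on complete coding transcripts (log2 fold change -0.94, adjusted p = 0.099). The COL4A1 difference missed the threshold without either RANKL library (adjusted p up to 0.079). COL4A4, at 1.31 and 1.2 CPM with RANKL and 1.28, 1.545 and 1.37 CPM without, and COL15A1, at 2.32 and 3.07 CPM against 2.24, 4.35 and 2.47 CPM, overlapped the mono-cultures. COL7A1 fell 3.99-fold (log2 fold change -1.998, SE 0.46, adjusted p = 0.0016), from 2.38, 2.79 and 2.92 CPM to 0.41 and 0.87 CPM, mostly on retained-intron transcripts, and the call was lost without the first RANKL library. COL13A1 rose 2.74-fold (log2 fold change 1.45, SE 0.38, adjusted p = 0.0048), from 3.84, 4.67 and 5.6 CPM to 10.9 and 13.0 CPM, and the call was lost without the second RANKL library although the groups did not overlap. COL6A1 rose 1.65-fold (log2 fold change 0.72, SE 0.09, adjusted p = 1.6e-06) and COL6A2 1.46-fold (log2 fold change 0.54, SE 0.17, adjusted p = 0.018), the latter past the threshold in the full set but not without either RANKL library (adjusted p up to 0.11). COL27A1, 1.85-fold higher on all transcripts (log2 fold change 0.89, SE 0.22, adjusted p = 0.0033), was called on complete coding ones, where it rose 2.65-fold (log2 fold change 1.41, adjusted p = 0.0012), from 0.608, 0.657 and 0.73 CPM to 1.64 and 1.68 CPM. The call of COL5A1 compared 0 to 0.44 counts per library with 2.52 and 2.83, all under the floor. Beside these changes, the epithelial marker EPCAM was at 84.5 and 89.9 CPM in DU145 with RANKL and 14.5, 16.4 and 21.6 CPM without, and the whole epithelial list summed to 1810 to 1813 CPM against 1081 to 1113 CPM. The part of that shift in the collagen results was not tested.

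In C4-2, COL5A1 fell 5.12-fold with RANKL (log2 fold change -2.36, SE 0.44, adjusted p = 0.00057), from 4.06, 3.71 and 3.79 CPM to 0.57 and 0.81 CPM, and was at 0.54 and 0.48 CPM with RAW264.7 and RANKL. In C4-2B it was at a log2 fold change of -1.02 (adjusted p = 0.074), from 3.48, 3.92 and 3.58 CPM to 1.60 and 1.80 CPM. With MG63 the same gene was at 6.01 and 5.74 CPM in C4-2 and 6.75 and 6.88 CPM in C4-2B, so that in both lines the 3 cultures did not overlap, although the MG63 difference missed the threshold (adjusted p = 0.20 and 0.093). COL5A2 rose 2.45-fold in C4-2 (log2 fold change 1.29, SE 0.36, adjusted p = 0.012), from 0.41, 0.49 and 0.46 CPM to 0.80 and 1.37 CPM, and the call was lost without the second RANKL library. On complete coding transcripts COL5A2 was also called, and COL5A1, with few such counts, was not tested.

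In 22Rv1 with RANKL, COL4A2 rose 2.17-fold (log2 fold change 1.12, SE 0.29, adjusted p = 0.0077) and COL9A2 2.10-fold (log2 fold change 1.07, SE 0.33, adjusted p = 0.025), and each call was lost when either RANKL library was left out, that of COL4A2 also without the second mono-culture and that of COL9A2 without the first or the third. COL9A2 was also called on complete coding transcripts, at 3.12-fold, and COL4A2 was not (adjusted p = 0.24). In C4-2B, COL12A1 was called on 4.85 and 4.55 counts with RANKL against 0.14 to 2.46 counts alone, and the call was lost without either RANKL library.

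**Figure D4:**
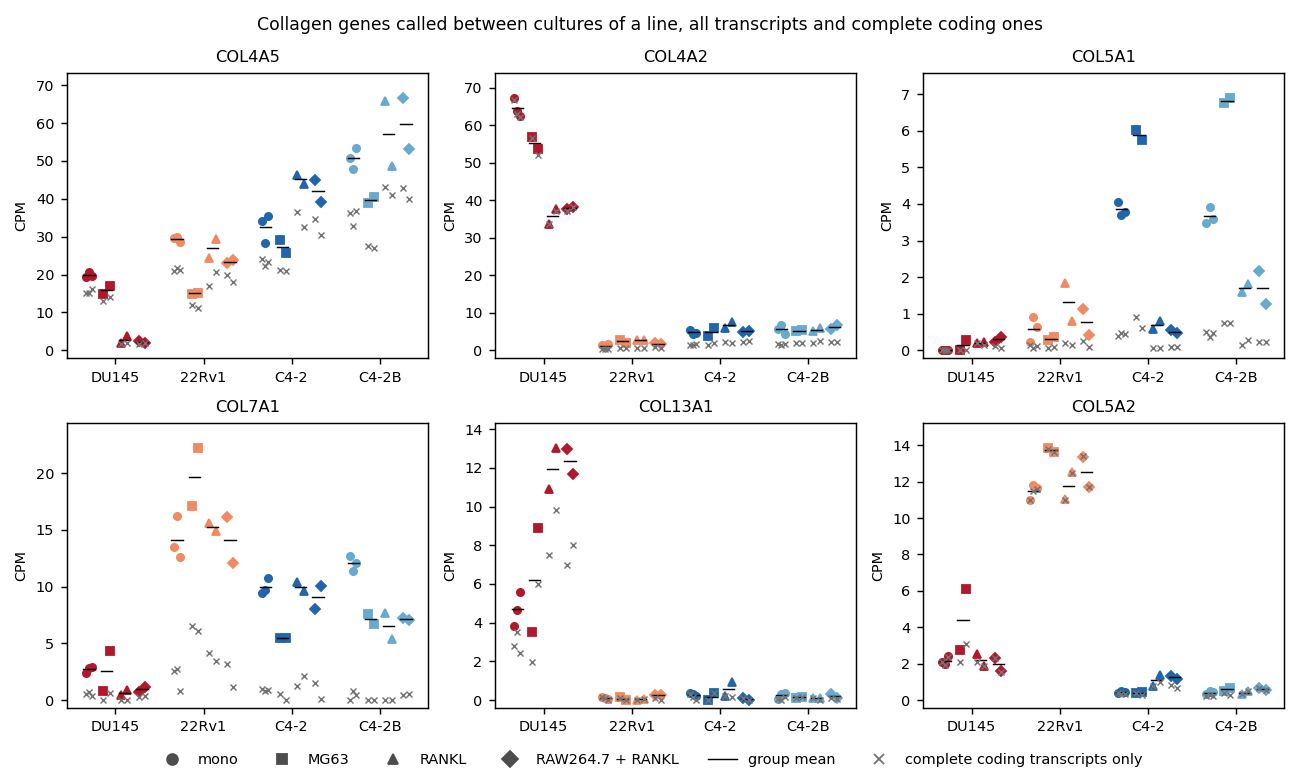
CPM (y axis, linear, 1 scale per gene) of 6 collagen genes called between cultures of a line, in each of 36 libraries by line (x axis) and culture (marker), with group means as bars and complete coding transcripts as crosses. COL4A5 in DU145 drops from near 20 CPM to 1.88 to 3.68 CPM with RANKL on both scales, while the crosses of COL5A1 and COL7A1 lie far below the totals.

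Among processing genes, 1 of 25 rose and 1 fell in DU145 with RANKL, 2 rose in 22Rv1, 2 fell in C4-2 and 2 fell in C4-2B, against 5.21%, 2.18%, 2.27% and 2.13% of all genes called. LOXL2, a cross-linking oxidase known to act on type IV collagen, fell in DU145 from 441, 445 and 480.3 CPM to 177 and 166 CPM (log2 fold change -1.31, SE 0.09, adjusted p = 2.8e-11), and LOXL1 rose there from 1.69, 1.304 and 1.38 CPM to 4.73 and 5.39 CPM (log2 fold change 1.89, SE 0.33, adjusted p = 8.6e-05). PLOD2 fell in C4-2B (log2 fold change -1.76, SE 0.21, adjusted p = 2.0e-06) and in C4-2 (log2 fold change -1.21, SE 0.25, adjusted p = 0.00097), to 2.11 to 3.63 CPM in both. LOX fell in C4-2B (log2 fold change -1.01, SE 0.25, adjusted p = 0.0077), a call lost without either RANKL library or the second mono-culture. Of 5 receptor genes 1 was called, ITGA2, the collagen-binding integrin chain, which fell in C4-2 (log2 fold change -1.26, SE 0.20, adjusted p = 5.7e-05).

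RAW264.7 cells with RANKL were compared with RANKL alone in the 16 libraries that received it (13 collagen genes of 11525 tested). In each of the 4 lines, 0 collagen genes were called, against 0.0174% of all genes in DU145, 0.00868% in 22Rv1, 0% in C4-2 and 0.026% in C4-2B. At an unadjusted p under 0.05, a threshold at which all genes were not counted, there were 0 in DU145, 1 in 22Rv1 (COL4A2), 2 in C4-2 (COL4A2 and COL13A1) and 0 in C4-2B, and DESeq2 also called 0 in each. By adjusted p alone there were also 0 collagen genes in each line (0.026%, 0.00868%, 0.0174% and 0.139% of all genes). The COL4A5 log2 fold changes were -0.38 (SE 0.37) in DU145, -0.17 (SE 0.17) in 22Rv1, -0.10 (SE 0.15) in C4-2 and 0.07 (SE 0.14) in C4-2B, and those of COL6A1, the best counted gene, were 0.03 (SE 0.07) in DU145, -0.09 (SE 0.12) in 22Rv1, 0.10 (SE 0.07) in C4-2 and 0.13 (SE 0.07) in C4-2B. The 95% interval of COL4A5 in DU145 ran from -1.11 to 0.34, past a 2-fold change, and those of COL6A1 in the 4 lines lay between -0.32 and 0.27. No processing gene of 22 and no receptor gene of 4 was called. Of the 10 macrophage and osteoclast markers, 7 in DU145, 7 in 22Rv1, 6 in C4-2 and 7 in C4-2B exceeded 3 counts in a library with RAW264.7, against 6, 6, 6 and 8 with RANKL alone. TYROBP and DCSTAMP were at 0 in all libraries with RAW264.7, and TYROBP also in all with RANKL alone. With RAW264.7 the list summed to 17.2 to 22.8 CPM in DU145 against 17.5 to 19.1 CPM with RANKL alone. The sums were 6.42 to 9.35 against 8.185 to 8.203 in 22Rv1, 8.55 to 9.76 against 9.68 to 10.15 in C4-2 and 9.03 to 9.50 against 7.49 to 9.23 in C4-2B. RAW264.7 cells are of mouse and these are human transcripts, and the part of RAW264.7 RNA was not tested.

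**Figure D5:**
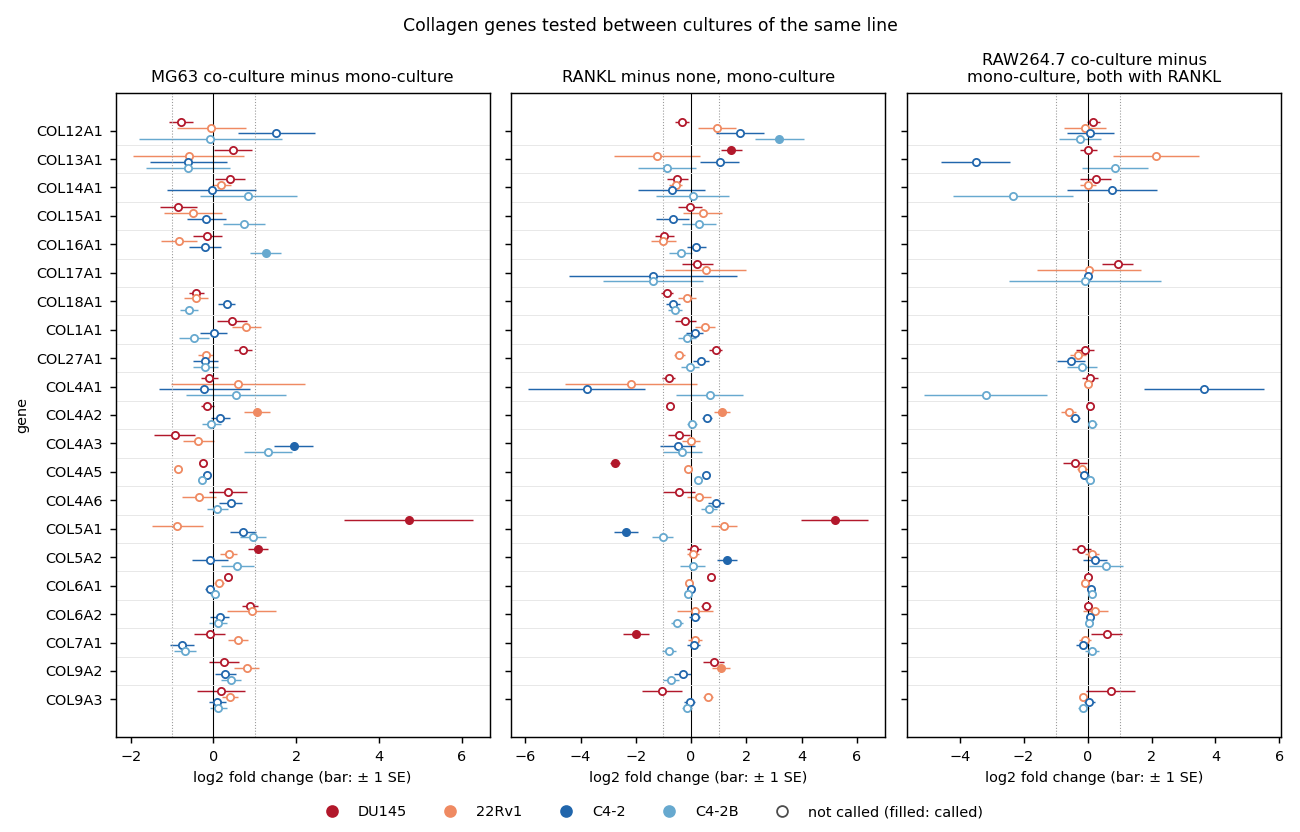
log2 fold change (x axis, bar ± 1 SE) of each collagen gene tested (y axis) in each line (color) for MG63, RANKL and RAW264.7, with filled points for genes called and dotted lines at 2-fold. Most points lie within 2-fold of 0, the filled COL4A5 point of DU145 under RANKL is the most precise of the large changes, and no point is filled for RAW264.7.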

How the data were processed

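Poly(A)-selected RNA of 36 libraries (16 groups of 2 or 3) was quantified by the authors with kallisto, and the deposited table holds estimated counts per transcript. The submitters' processing notes name hg19, while transcript names, kinds and positions used here are of GENCODE 29 on GRCh38. The libraries were strand-specific, but whether kallisto was run with strand is not given in the sources used here, so reads of genes that overlap on opposite strands cannot be told apart.

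Repeated lines of a transcript were kept once, counts were summed per symbol and rounded, and lines with no symbol (0.526% to 0.764% of counts) stayed out. CPM is per library total, and TPM divides by annotated transcript length, which covered 98.9% to 99.1% of counts. Every column was used. Genes that reached 100 counts in any library were tested with edgeR 4.0.16 (quasi-likelihood, TMM, R 4.3.3), with a Benjamini-Hochberg adjusted p under 0.05 and a fold over 2 as the call. Lines and MG63 were fitted on 20 libraries without RANKL, RAW264.7 on 16, and RANKL on 36. The fits were tested on simulated data.

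The genes given in most detail are the 10 collagen genes of highest mean TPM, those called within a line (at most 12) and the 3 with the largest called difference in each line comparison. They have values in every library or, in lines where a gene was low, ranges or the highest value. Other collagen genes, such as COL27A1, COL18A1 and COL6A3, are named with fewer values. The collagen genes, the processing, receptor and marker lists and the comparisons were chosen with earlier results of these data known. Alternatives were DESeq2 1.42.0, library totals, no filter, other call rules, other libraries in the fit, RANKL mono-cultures as controls, the replicate number as a block, leaving out each library and, chosen after seeing the data, complete coding transcripts only. The level of 1 marker gene and the sequence of 1 exon are not reported here.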

Additional observations from a re-analysis of the deposited data

Results flagged for a closer look

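These results are listed because an effect differed between lines by a test of the difference itself (edgeR's quasi-likelihood test). The MG63 effect on COL4A3 was larger in the BPCa than in the LPCa lines by 2.28 on the log2 scale (adjusted p = 0.0090), on few counts in the BPCa lines. The other 5 come from the comparison of the RANKL effect in DU145 with the mean effect in the other 3 lines, which was added after the data were seen. COL4A5 differed by -2.98 (adjusted p = 5.0e-11), COL4A2 by -1.32 (adjusted p = 1.5e-05), COL12A1 by -2.29 (adjusted p = 0.0025) and COL7A1 by -1.81 (adjusted p = 0.0087). COL12A1 was at or near the floor in 22Rv1, C4-2 and C4-2B and was not called in DU145 itself, and the COL7A1 call within DU145 was lost without the first DU145 library with RANKL. COL5A1 had a fitted difference of 5.92 (adjusted p = 0.0012), which rests on DU145 libraries under 3 counts and is no measure of size.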

How the results depend on the processing

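Counts of collagen genes called were compared over 18 comparisons. DESeq2 moved 0 of them by over 1.5 times. With no filter, where more collagen genes entered the test, the counts were 25 for 22Rv1 against DU145, 21 for 22Rv1 against C4-2 and C4-2B, 0 for MG63 in 22Rv1 and in C4-2B, and 2 for RANKL in C4-2B. With adjusted p alone they were 3 for C4-2B against C4-2, 7, 2 and 2 for MG63 in DU145, 22Rv1 and C4-2B, 2 for MG63 between BPCa and LPCa, and 11, 5 and 2 for RANKL in DU145, C4-2 and C4-2B. With unadjusted p and the fold limit they were 2 for MG63 in C4-2B, 2 between BPCa and LPCa, 1 for RAW264.7 in C4-2 and 2 for RANKL in C4-2B. On complete coding transcripts, where fewer genes could be tested, they were 10 for DU145 against C4-2 and C4-2B, 0 for MG63 in DU145, C4-2, C4-2B and between BPCa and LPCa, 1, 1 and 0 for RANKL in 22Rv1, C4-2 and C4-2B, and 3 for RANKL in DU145 against the other lines. Library totals gave 0 for MG63 in 22Rv1 and C4-2B and 2 for RANKL in C4-2B. All 36 libraries together gave 2 for MG63 between BPCa and LPCa, and mono-cultures alone gave 2 for RANKL in C4-2B. The cause of these moves was not tested where none is named. The share of all genes called under each setting is not given here, so these counts do not measure the family against its background.

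With mono-cultures that received RANKL as controls, with or without restriction to complete coding transcripts, MG63 gave 1 call in DU145 and 0 in 22Rv1, C4-2 and C4-2B. On all transcripts the DU145 call was COL4A5, whose log2 fold change turned from -0.26 to 2.51. COL4A2 in 22Rv1 turned from a log2 fold change of 1.05 to -0.09, and to -0.08 on complete coding transcripts.

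Leaving out each library gave 15 to 17 calls for 22Rv1 against DU145, 0 to 1 for C4-2B against C4-2, 17 to 18 for DU145 against C4-2 and C4-2B, and 12 to 14 for 22Rv1 against them. For MG63 it gave 1 to 5 in DU145, 0 to 1 in 22Rv1, 0 to 1 in C4-2, 0 to 0 in C4-2B and 1 to 4 between BPCa and LPCa. For RANKL it gave 4 to 6 in DU145, 0 to 2 in 22Rv1, 1 to 2 in C4-2, 0 to 1 in C4-2B and 5 to 6 in DU145 against the other lines, and for RAW264.7 0 to 0 in each line. Between lines, the calls of COL27A1 (DU145 against C4-2 and C4-2B, without the third DU145 mono-culture), COL12A1 and COL15A1 (22Rv1 against C4-2 and C4-2B, without the first 22Rv1 mono-culture) were lost, that of COL15A1 also without the first C4-2 or C4-2B mono-culture.

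Replicate numbers showed no sign of pairing the samples (mean correlation of deviations -0.033 for mono-culture and MG63, and 0.019 and 0.018 for the other pairs of cultures). In groups of 2 libraries the deviations of 1 library mirror those of the other, so these correlations are not independent and cannot exclude pairing. With the replicate block the calls were 0 for MG63 in 22Rv1 and in C4-2B, and the other 16 counts moved by less than 1.5 times. Groups had 2 or 3 libraries, and the co-cultures had a lower depth. The 23 collagen genes that did not reach 100 counts were not tested in the main fits, and changes of other rare collagen genes rest on few counts.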
